A study of Mus musculus with 6 samples.

Results

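Claudins, cadherins and connexins are the families of membrane proteins that hold neighbouring cells together, seal the space between them and join their cytoplasm, and their transcripts were followed in the prostates of hormone-treated and control mice. The members were picked by a rule on gene names that reads no measured value: the numbered claudins (Cldn), cadherins (Cdh) and connexins (Gja to Gje), the desmosomal cadherins (Dsg and Dsc), the zonula occludens plaque proteins (Tjp), occludin (Ocln) and both tricellulin-related genes (Marveld2 and Marveld3). This rule gave 81 genes of the 34745 in the deposited table, which were 23 claudins, 23 cadherins, 20 connexins, 9 desmosomal cadherins and 6 tight junction strand and plaque genes.

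The T+E2 group comprised 3 male C57BL/6 mice that carried a subcutaneous slow-release pellet of testosterone (T) and oestradiol (E2) for 12 weeks, and the CON group comprised 3 males that had only the skin cut and closed. All mice were 6 to 8 weeks old at the start, no castration or transgene is named in the sources used here, and the pellets were exchanged every 1 month according to the methods. The treatment is used to model prostatic enlargement that obstructs the bladder outlet. RNA came from prostate tissue with no lobe stated, so that a change in the number of cells of a type and a change in the RNA of each cell cannot be told apart in any result below.

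In glandular epithelium, tight junctions lie nearest to the lumen and are built from claudin and occludin strands, which the Tjp proteins tie to the cytoskeleton. Adherens junctions below them are built from classical cadherins bound to catenins, and desmosomes from desmogleins and desmocollins bound to plakophilins and desmoplakin. Gap junctions are channels of connexins that let small molecules pass between cells, and connexin 32 (Gjb1) and connexin 26 (Gjb2) are their usual subunits in secretory cells. Each family is expressed by cell type: Cdh5 and Cldn5 mark endothelium, Cdh19 and Gjc3 mark glia of peripheral nerve, and Cdh1 marks epithelium.

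The libraries held between 14816146 and 16555549 counts on genes. The prostate secretory gene Pbsn was present in every mouse, at 10239 to 13355 FPKM (read counts scaled to gene length and library total) in CON and at 1010 to 1434 FPKM in T+E2. Control mouse 2 and T+E2 mouse 2 stood apart in 8 seminal vesicle genes. These summed to 10309 and 642 CPM there and to between 0.628 and 4.10 CPM in the other 4 libraries. CPM are counts scaled to the library total after its adjustment by edgeR's TMM factor. T+E2 mouse 2 also held 99 counts of Upk3a and 120 of Krt20, urothelial genes with at most 5 and 6 counts in the other libraries. Calls that were lost without mouse 2 of both groups are given with their value in that fit.

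Of the 81 members, 11 had no count in any mouse, 29 had counts too low to test, and 41 passed the filter on low counts (at least 10 counts at the median depth in 3 libraries, and 15 in all). Of the 41, 38 passed it through both groups, Cdh17 passed only through its T+E2 libraries, and 2 members, Cldn15 among them, passed through a mixture of libraries. A gene counted as changed at an adjusted p under 0.05 (edgeR's quasi-likelihood test, Benjamini-Hochberg adjustment over all 15580 genes tested), and as a differentially expressed gene (DEG) where its log2 fold change was also over 1 in size. Of the 41 tested members, 5 (12.2%) were higher in T+E2, beside 10.4% of all genes tested, and 9 (22%) were lower, beside 9.25% of all genes tested. DEGs made up 3 members higher and 3 members lower (7.32% each), beside 4.27% and 3.38% of all genes tested. The 3 values of each group, as CPM, did not overlap for 7 members higher and 11 lower (17.1% and 26.8%), beside 20.1% and 20.7% of all genes tested. The median log2 fold change was -0.13 over the 41 members and 0.00 over all genes tested, and ranged by family from -0.53 for desmosomal cadherins to -0.05 for connexins. The share of members higher was thus near that of all genes, and the share lower was above it. Without mouse 2 of both groups, an alternative chosen after the data were seen that leaves 2 against 2 mice, 1354 of 15646 genes were called. Of the members, 4 of the 5 higher ones and 0 of the 9 lower ones were then called, and all 14 kept their direction.

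**Figure D1:**
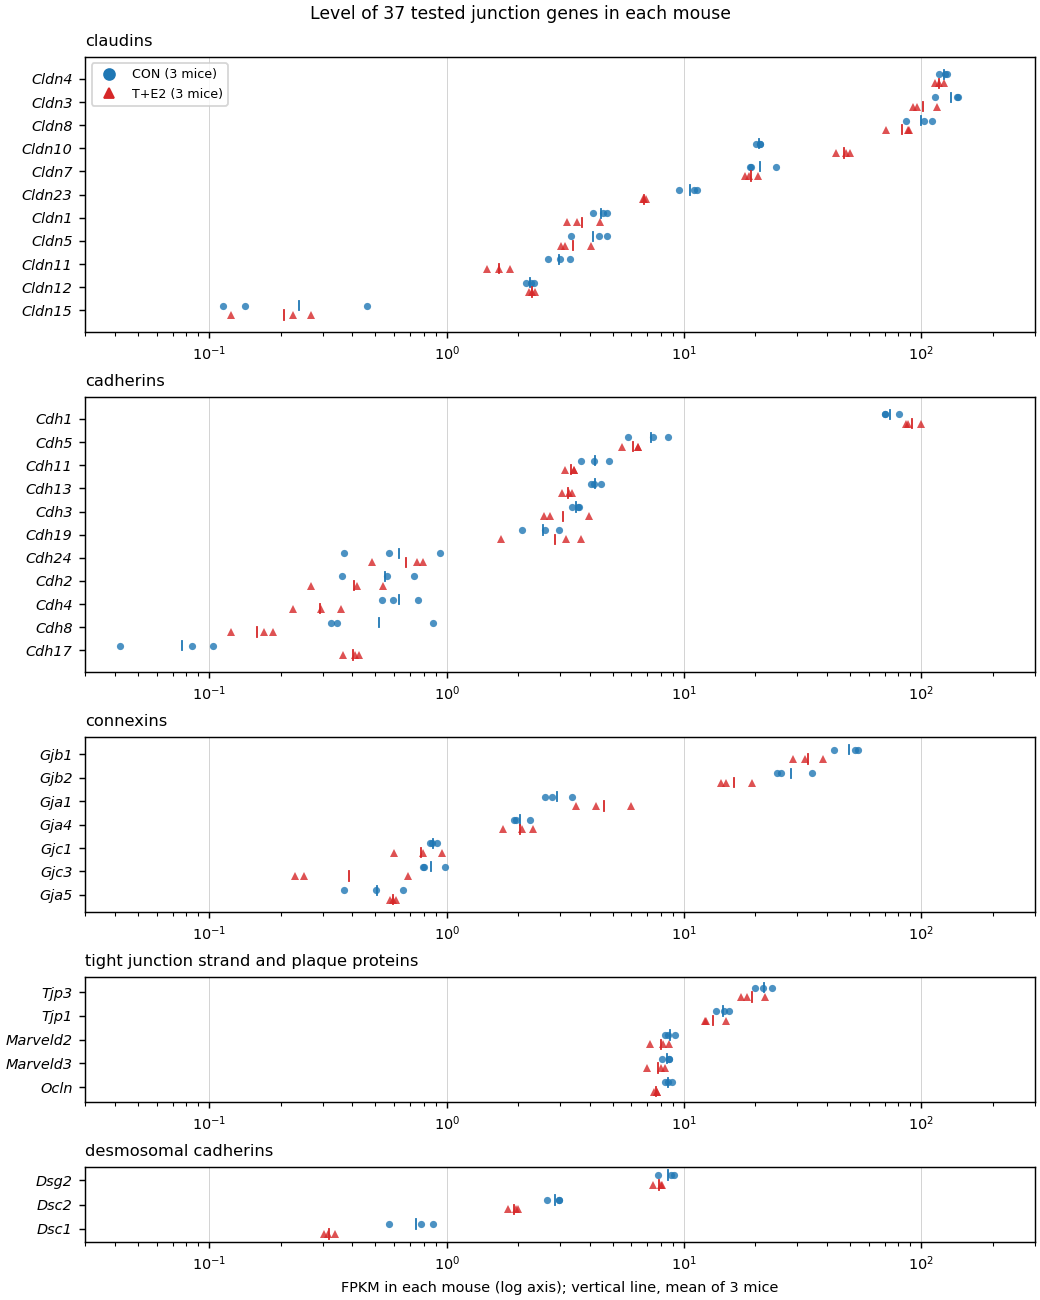
Level of 37 of the 41 tested members in each mouse, as FPKM on a log axis, in a panel for each family and ordered by mean level. Circles are the 3 CON mice, triangles the 3 T+E2 mice and vertical lines the group means. Cldn4, Cldn3, Cldn8, Cdh1 and Gjb1 lie highest in their panels, and the T+E2 triangles of Cldn10 and Cdh17 lie to the right of all their circles.

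Upstream sequences of some claudins and connexins that changed are shown first, out of those held by the RefSeq promoter table (GRCm38.p6). It matched 48 of the 81 members, with 65 start sites, and the 250 bases before each start were read on the strand of the gene. Cldn10, the claudin that rose, has 2 annotated starts with unlike upstream sequence, and counts per gene cannot tell which start was used. The upstream sequences of Gjb2 and of the last of the 4 listed starts of Gjb1 are those of the connexins that fell. Capitals mark matches on either strand to 4 short motifs, the androgen response half-site AGAACA, the oestrogen response half-site AGGTCA, the E-box CACCTG bound by Snail and Zeb factors, and the GC box GGGCGG.
Cldn10, first start, chr14:118787621-118787870, plus strand: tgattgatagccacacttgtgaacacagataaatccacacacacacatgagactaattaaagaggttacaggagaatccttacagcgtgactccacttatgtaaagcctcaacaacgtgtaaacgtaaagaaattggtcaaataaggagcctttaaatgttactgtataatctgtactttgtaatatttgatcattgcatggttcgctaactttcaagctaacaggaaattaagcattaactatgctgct
Cldn10, second start, chr14:118854700-118854949, plus strand: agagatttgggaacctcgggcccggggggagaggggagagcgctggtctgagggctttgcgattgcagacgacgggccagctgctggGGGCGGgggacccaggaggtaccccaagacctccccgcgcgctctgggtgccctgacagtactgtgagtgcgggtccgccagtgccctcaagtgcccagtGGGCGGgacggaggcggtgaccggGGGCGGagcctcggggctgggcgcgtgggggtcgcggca
Gjb2, chr14:57104703-57104952, minus strand: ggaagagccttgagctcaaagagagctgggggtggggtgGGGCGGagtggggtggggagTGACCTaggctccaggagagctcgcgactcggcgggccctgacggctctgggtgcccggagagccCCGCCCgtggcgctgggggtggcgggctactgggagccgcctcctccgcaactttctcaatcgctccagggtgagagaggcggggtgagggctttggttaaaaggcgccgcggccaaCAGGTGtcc
Gjb1, last start, chrX:101383482-101383731, plus strand: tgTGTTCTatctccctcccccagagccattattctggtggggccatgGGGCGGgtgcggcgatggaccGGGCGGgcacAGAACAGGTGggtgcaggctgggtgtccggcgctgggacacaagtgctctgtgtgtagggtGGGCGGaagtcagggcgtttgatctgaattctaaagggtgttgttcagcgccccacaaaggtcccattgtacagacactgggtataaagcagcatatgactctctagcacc

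The first Cldn10 window held none of the 4 motifs, with 36.0% G or C and 4 CpG dinucleotides, and the second held 3 GC boxes, with 72.4% G or C and 22 CpG. The Gjb2 window (69.2% G or C) held 1 oestrogen half-site, 1 E-box and 2 GC boxes. The printed Gjb1 window (58.4% G or C) held 2 androgen half-sites, 1 E-box and 3 GC boxes, and its second androgen half-site and its E-box overlap in 1 run of capitals. Not printed are the other Gjb1 starts and Cldn11, a claudin that fell, whose window held none of the 4 motifs. Of those Gjb1 starts, the first held 2 androgen half-sites, the second none of the motifs and the third 1 oestrogen half-site. Over all 32851 windows in the table, 16.08% held AGAACA, 14.02% held AGGTCA, 17.22% held CACCTG and 32.74% held GGGCGG. Over the 65 windows of the members, the shares were 15.38%, 18.46%, 20.0% and 41.54%. These are matches of letters to sequence and no measure of binding.

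Among the claudins, which set the tightness and ion selectivity of the junction, the clear change was a rise of Cldn10, which forms ion-selective pores. Cldn10 (ENSMUSG00000022132, chromosome 14, 118787908 to 118875489, plus strand) stood at 20.2, 20.8 and 20.9 FPKM in the CON mice and at 43.5, 50.1 and 48.2 FPKM in the T+E2 mice. The CON mice lay within 1 FPKM of each other, and every T+E2 mouse was above all of them. The log2 fold change was 1.23 (SE 0.09, 95% confidence interval 1.03 to 1.43), a 2.35-fold rise with an adjusted p of 7.87e-05. It was called in all 15 alternative analyses, with log2 fold changes between 1.16 and 1.27, and was 1.19 both without T+E2 mouse 2 and without mouse 2 of each group. Its share of the summed claudin FPKM was 4.86% ± 0.18 in CON and 12.2% ± 0.84 in T+E2 (mean ± SD, n = 3), a description with no test.

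Cldn4, Cldn3 and Cldn8 had the highest levels of the claudins in both groups, and none of the 3 was called. Cldn4, a barrier claudin, was at 126, 118 and 129 FPKM in CON and at 119, 114 and 124 FPKM in T+E2. The groups overlapped, and the log2 fold change was -0.02 with a 95% confidence interval of -0.23 to 0.18. Cldn3, also a barrier claudin, was at 114, 142 and 143 FPKM in CON and at 95.9, 91.8 and 117 FPKM in T+E2. Its lowest CON mouse was below its highest T+E2 mouse, and its log2 fold change of -0.35 (SE 0.13) had an adjusted p of 0.0906, and was -0.46 (adjusted p = 0.0465) without CON mouse 1. Cldn8, known from the distal nephron, had means of 100 and 82.6 FPKM (log2 fold change -0.24, adjusted p = 0.270), and Cldn7 had means of 20.9 and 19.2 FPKM. The ratio of Cldn10 to Cldn3, 0.146 to 0.178 in CON, was 0.414 to 0.546 in T+E2.

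Cldn23 and Cldn11, both of lower level, fell. Cldn23 had a mean of 10.6 ± 0.96 FPKM in CON and 6.81 ± 0.12 FPKM in T+E2 (SD, n = 3), a log2 fold change of -0.61 (SE 0.12) with an adjusted p of 0.0101, and the groups did not overlap. This call held when any 1 mouse was left out and had a log2 fold change of -0.60 (adjusted p = 0.0844) without mouse 2 of both groups. Cldn11, the claudin of myelin and of the Sertoli cell barrier, had means of 2.99 ± 0.32 and 1.66 ± 0.18 FPKM, a log2 fold change of -0.81 (SE 0.20) with an adjusted p of 0.0252. It passed in 2 of the 6 analyses that left out 1 mouse and did not pass without CON mouse 1, CON mouse 3, T+E2 mouse 1 or T+E2 mouse 2 (highest adjusted p 0.0888). Without mouse 2 of both groups its log2 fold change was -0.82 (adjusted p = 0.116).

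Cldn5, the endothelial claudin, was at 4.72, 4.38 and 3.35 FPKM in CON and 3.04, 3.16 and 4.06 FPKM in T+E2. The groups overlapped (log2 fold change -0.24, adjusted p = 0.431). Of 6 endothelial markers, Vwf was higher and the other 5 were not called, and their summed level was 98.2 to 134 CPM in CON and 139 to 174 CPM in T+E2. Cldn1, Cldn12 and Cldn15 were not called either, with log2 fold changes of -0.23, 0.06 and -0.15. Of the remaining claudins, Cldn13, Cldn16, Cldn18 and Cldn24 had no count in any mouse, which allows at most 3 counts or 0.182 to 0.207 CPM in a library, counting error only. The other 8 were too low to test. Among them Cldn6, a claudin of early embryonic epithelium, had 0 counts in each CON mouse and 3, 5 and 5 counts in the T+E2 mice, at about the size of that limit, and Cldn22 had 10, 22 and 6 counts in CON and 3, 5 and 3 in T+E2. All 995 exonic bases of Cldn22 overlap Wwc2 on the other strand, and 565 bases of its transcript are 97.2% identical to Cldn24, so that its counts are uncertain. Cldn19 had 50 of its 97 counts in CON mouse 1.

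**Figure D2:**
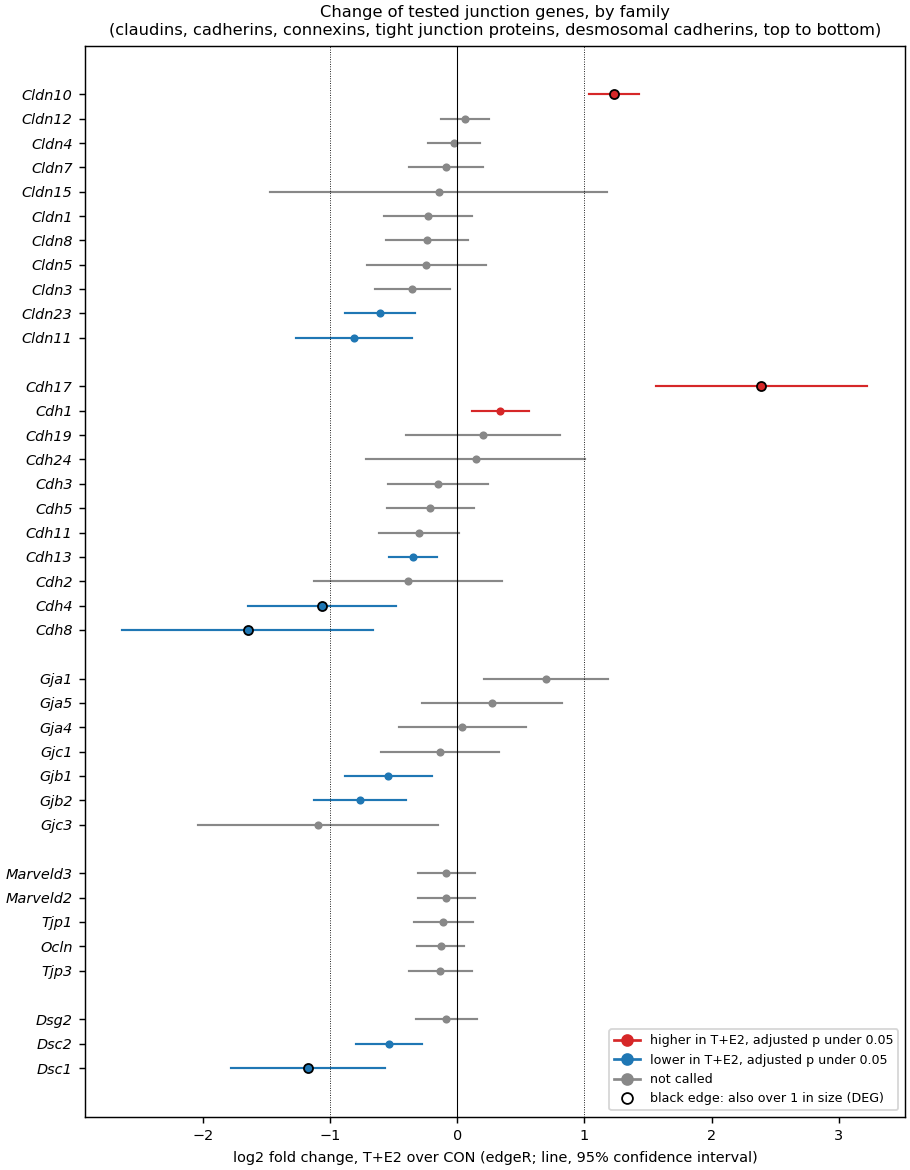
Log2 fold change of 37 of the 41 tested members in T+E2 over CON, with its 95% confidence interval from edgeR, in a block for each family. Red points were higher and blue points lower at an adjusted p under 0.05, grey points were not called, and a black edge marks DEGs. Dotted lines stand at a log2 fold change of 1 in either direction. The intervals of the tight junction strand and plaque genes drawn all cross 0.

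Occludin, the Marvel genes and the Tjp scaffolds, which carry the claudin strands, gave no call. Tjp3 was at 21.6, 23.5 and 20.0 FPKM in CON and 18.5, 17.3 and 21.9 FPKM in T+E2, and its groups overlapped (log2 fold change -0.13, 95% confidence interval -0.38 to 0.11). Tjp1, the scaffold ZO-1, was at 15.5, 14.8 and 13.7 FPKM in CON and 12.4, 12.2 and 15.1 FPKM in T+E2 (log2 fold change -0.11, interval -0.34 to 0.12). In both scaffolds the difference was within the spread of the mice. Ocln was at 8.52, 8.87 and 8.29 FPKM in CON and 7.50, 7.67 and 7.68 FPKM in T+E2. These values did not overlap, but the log2 fold change of -0.13 (interval -0.31 to 0.05) had an adjusted p of 0.278. Marveld2 and Marveld3 both had a log2 fold change of -0.09, with intervals between -0.31 and 0.14. Of the 6 genes, 0 had an unadjusted p under 0.05 in edgeR and 0 were called by DESeq2.

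Cadherins were dominated by Cdh1, E-cadherin, the adherens junction protein of epithelium (chromosome 8, 106603351 to 106670246). It was at 70.5, 80.7 and 70.2 FPKM in CON and at 86.0, 87.6 and 99.5 FPKM in T+E2. All T+E2 mice were above all CON mice, with a log2 fold change of 0.34 (SE 0.10, interval 0.11 to 0.57) and an adjusted p of 0.0462. This call stood at the threshold: it passed in 3 of 15 alternative analyses and in none of the 6 that left out 1 mouse (adjusted p 0.0548 to 0.122), while the log2 fold change stayed between 0.29 and 0.43, with 0.43 (adjusted p = 0.0859) without mouse 2 of both groups. Another epithelial adhesion gene, Epcam, had a log2 fold change of 1.18. Of the other luminal markers, Krt8 and Krt19 were not called, and Krt18 (-0.54), Cd24a (-1.30) and Pbsn (-3.29) were lower. What part these moves had in the Cdh1 value was not tested.

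Cdh5, VE-cadherin of endothelium, was at 7.42, 8.58 and 5.82 FPKM in CON and 6.38, 6.43 and 5.49 FPKM in T+E2, with overlapping groups (log2 fold change -0.21, adjusted p = 0.350). Cdh2, N-cadherin of mesenchymal and neural cells, was at 0.560, 0.727 and 0.363 FPKM in CON and at 0.267, 0.539 and 0.420 FPKM in T+E2. These also overlapped, and the log2 fold change of -0.39 had an interval of -1.12 to 0.35. The interval of the N-cadherin transcript was thus wide, whereas that of E-cadherin ran from 1.08-fold to 1.48-fold. Cdh3, P-cadherin of basal cells, had a log2 fold change of -0.15 (adjusted p = 0.560). Of 5 basal markers, Trp63 was higher (0.57) and the keratins Krt5, Krt14, Krt15 and Krt17 were not called.

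Cdh17, the liver-intestine cadherin, rose from a low level. It had 6, 3 and 8 counts in CON (0.084, 0.042 and 0.104 FPKM) and 30, 34 and 26 counts in T+E2 (0.413, 0.428 and 0.365 FPKM). Every T+E2 mouse had more than 3 times the count of any CON mouse. The log2 fold change was 2.39 (SE 0.36, interval 1.56 to 3.22), a 5.25-fold rise with an adjusted p of 3.19e-03, and it was called in all 14 alternatives that tested it, including those without T+E2 mouse 2. It is the member that entered the test only through its T+E2 libraries, so this call was not independent of the filter.

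The 3 cadherins that fell are best known from nerve, muscle or vessels. Cdh4, R-cadherin, was at 0.592, 0.533 and 0.760 FPKM in CON and at 0.225, 0.360 and 0.296 FPKM in T+E2. The groups did not overlap, and the log2 fold change was -1.06 (SE 0.25, adjusted p = 0.0227), with 3 of 6 calls kept when 1 mouse was left out (lost without CON mouse 3, T+E2 mouse 1 or T+E2 mouse 3, up to an adjusted p of 0.0806). Without mouse 2 of both groups it was -1.35 (adjusted p = 0.0514). Cdh8, a neural cadherin, was at 0.877, 0.346 and 0.327 FPKM in CON and at 0.186, 0.123 and 0.170 FPKM in T+E2. CON mouse 1, with 134 counts against 53 and 54 in the other two, set much of the log2 fold change of -1.65 (SE 0.43, adjusted p = 0.0312), which was -1.04 (adjusted p = 0.0501) without it. The call was also lost without any 1 of the T+E2 mice (up to an adjusted p of 0.109), and was -1.71 (adjusted p = 0.0997) without mouse 2 of both groups. Cdh13, T-cadherin, a lipid-anchored cadherin of vessels and smooth muscle, had means of 4.24 ± 0.22 and 3.24 ± 0.16 FPKM, a log2 fold change of -0.35 (SE 0.08) with an adjusted p of 0.0213. It passed only without T+E2 mouse 3 among the 6 analyses without 1 mouse (adjusted p up to 0.0832), and was -0.37 (adjusted p = 0.110) without mouse 2 of both groups.

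Markers of those tissues also moved, not all in one direction. Of 6 smooth muscle genes Acta2 (-0.50) and Des (-0.38) were lower, and their summed level was 3464 to 4316 CPM in CON and 3015 to 3305 CPM in T+E2. Of 5 Schwann cell and nerve genes Sox10 (-1.66) and Prx (-0.83) were lower, and the sum was 102 to 119 CPM in CON and 74.1 to 96.6 CPM in T+E2. Of the 6 endothelial genes, Vwf was higher (0.65) and 0 were lower (also in DESeq2 and at an unadjusted p under 0.05), with the sums given above for Cldn5. None of these markers was at 0, and their part in the fall of Cdh4, Cdh8 and Cdh13 was not tested. Cdh19, the cadherin of Schwann cell precursors, had a log2 fold change of 0.20 (interval -0.41 to 0.81), in the other direction. Cdh11, a cadherin of stromal cells, had a log2 fold change of -0.30 (adjusted p = 0.165), and 5 other genes hold stretches of 753 to 990 bases that are at least 92.9% identical to it. Cdh24 was not called (0.14). Cdh12 had no count in any mouse, and 11 further cadherins were too low to test. Of these, Cdh26 had 0, 0 and 1 counts in CON and 5, 3 and 2 in T+E2, Cdh22 had 2, 4 and 1 in CON and 0 in each T+E2 mouse, and all 9 counts of Cdh16 came from CON mouse 2.

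Among the connexins, both subunits of highest level fell. Gjb1, connexin 32 (chromosome X, 101376378 to 101385629, plus strand), was at 42.8, 54.1 and 52.4 FPKM in CON and at 38.5, 28.9 and 32.2 FPKM in T+E2. The lowest CON mouse was above the highest T+E2 mouse. The log2 fold change was -0.54 (SE 0.15, adjusted p = 0.0376). That call was lost without CON mouse 2, CON mouse 3, T+E2 mouse 2 or T+E2 mouse 3 (adjusted p 0.0966 to 0.112), and without mouse 2 of both groups the log2 fold change was -0.39 (adjusted p = 0.230).

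Gjb2, connexin 26 (chromosome 14, 57098600 to 57104702, minus strand), was at 24.7, 34.6 and 25.5 FPKM in CON and at 14.3, 15.0 and 19.4 FPKM in T+E2. Again no T+E2 mouse reached the lowest CON mouse. The log2 fold change was -0.76 (SE 0.16, interval -1.12 to -0.41), a 1.70-fold fall with an adjusted p of 0.0122. It was called in 5 of the 6 analyses without 1 mouse, with an adjusted p of 0.0519 without T+E2 mouse 2, and was -0.55 (adjusted p = 0.0840) without mouse 2 of both groups.

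Gjb2 lies on chromosome 14 between Gja3, with 1 count in all, and Gjb6, connexin 30 of skin and cochlea, which had 0, 1 and 0 counts in CON and 4, 13 and 2 in T+E2. The highest count of Gjb6 was that of T+E2 mouse 2. Gjb5 was also too low to test, with 7, 10 and 4 counts in CON and 5, 14 and 8 in T+E2.

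**Figure D3:**
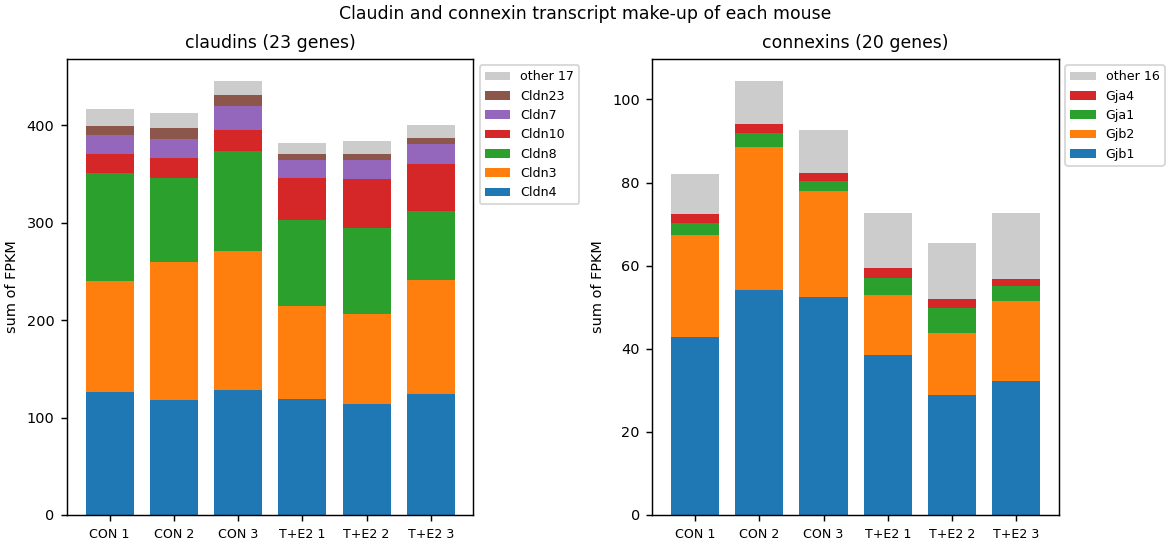
Summed FPKM of the 23 claudins (left) and the 20 connexins (right) in each mouse, stacked by gene, with the genes not named drawn in grey. The Cldn10 layer makes up 4.68% to 5.05% of the claudin bar in CON and 11.4% to 13.1% in T+E2, and the Gjb1 and Gjb2 layers together make up 82.2% to 84.9% of the connexin bar in CON and 67.0% to 72.8% in T+E2.

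In the make-up of the connexin transcripts, the joint share of Gjb1 and Gjb2 differed between the groups beyond the spread of the mice. The connexin FPKM summed to 82.1, 104 and 92.6 in CON and to 72.6, 65.5 and 72.7 in T+E2. Gjb1 and Gjb2 together made up 83.7% ± 1.4 of that sum in CON and 70.3% ± 2.9 in T+E2 (SD, n = 3). The Gjb1 share alone overlapped, at 51.7% to 56.6% in CON and 44.1% to 53.1% in T+E2. The Gjb2 share did not overlap, at 27.6% to 33.1% in CON and 19.7% to 26.6% in T+E2. These shares carry no test of their own. The length behind the deposited FPKM differed from the length of all exons in GENCODE M21 for some members (Gja1 3105 against 10257 bases, Cldn12 14806 against 4228, Cldn10 3711 against 2591), which changes levels compared between genes but not a gene between groups. With the exon length in its place, the shares of Gjb1 with Gjb2 were 85.0% and 72.0%, and those of Cldn10 among claudins 6.53% and 15.9%.

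Gja1, connexin 43, the common connexin of smooth muscle, stroma and basal cells, was at 2.78, 3.36 and 2.59 FPKM in CON and at 4.28, 5.95 and 3.52 FPKM in T+E2. The groups did not overlap, yet the log2 fold change of 0.70 (SE 0.21) had an adjusted p of 0.0531. It passed in DESeq2 (adjusted p = 0.0271) and without T+E2 mouse 3 (adjusted p = 0.0236). Gjc3, a connexin of myelinating glia, had 67, 54 and 59 counts in CON and 16, 52 and 17 in T+E2, a log2 fold change of -1.10 (interval -2.04 to -0.15) with an adjusted p of 0.0986. T+E2 mouse 2 stood apart from the other two, and Gjc3 was called without it. The lower Sox10 and Prx given above moved in the same direction, and their part in the Gjc3 value was not tested. Gja4, connexin 37 of arterial endothelium, had a log2 fold change of 0.04 (interval -0.46 to 0.54). Gja5 and Gjc1 were not called either (0.27 and -0.13). A stretch of 856 bases of Gja5 is 99.4% identical to Zfp697, so reads may be split between them. For Gjc3, a stretch of 511 bases is 90.6% identical to Zbtb8os. Of the connexins, 4 had no count in any mouse, Gja10, Gjd4 and Gje1 among them, and 6 further connexins were too low to test.

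Some urothelial markers were also higher in T+E2, as Cldn10 and Cdh17 were. Most counts of Upk3a and Krt20 came from T+E2 mouse 2. Of 4 tested urothelial genes Upk1a (1.80), Upk1b (0.66) and Upk2 (2.20) were higher and Upk3b was not called (DESeq2 called all 4), Upk3a and Krt20 were too low to test, and the sum was 423 to 642 CPM in CON and 1373 to 1701 CPM in T+E2. Upk1a made up most of it, at 213 to 394 FPKM in CON and 912 to 1039 FPKM in T+E2. Upk1b followed at 80.3 to 93.8 FPKM in CON and 109 to 148 FPKM in T+E2. Upk2 was far lower, with 12, 14 and 10 counts in CON and 39, 82 and 47 in T+E2. The sum therefore mostly reports Upk1a and Upk1b. Upk3a, a defining gene of superficial urothelium, had 0 counts in each CON mouse and 5, 99 and 3 in the T+E2 mice, and Krt20 had 2, 3 and 4 in CON and 6, 120 and 1 in T+E2. The part of urothelial cells in the Cldn10 and Cdh17 values was not tested.

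Desmosomal cadherins were led by Dsg2, the desmoglein of simple epithelium, at 9.03, 7.76 and 8.84 FPKM in CON and 8.01, 8.10 and 7.41 FPKM in T+E2. Its groups overlapped (log2 fold change -0.09, interval -0.32 to 0.15), and 330 of its exonic bases overlap Gm16090 on the other strand. Its desmocollin counterpart Dsc2 was at 2.97, 2.64 and 2.98 FPKM in CON and 1.96, 2.00 and 1.81 FPKM in T+E2. Here no T+E2 mouse reached the lowest CON mouse, with a log2 fold change of -0.53 (SE 0.11, adjusted p = 0.0145), which was lost without CON mouse 3 (adjusted p = 0.0556) and without mouse 2 of both groups (-0.62, adjusted p = 0.0511). Dsc1, the desmocollin of cornified epithelium, was at 0.572, 0.874 and 0.777 FPKM in CON (32, 49 and 47 counts) and at 0.315, 0.304 and 0.340 FPKM in T+E2 (18, 19 and 19 counts). Its log2 fold change of -1.17 (SE 0.26, adjusted p = 0.0184) was called in 2 of the 6 analyses without 1 mouse, and lost without CON mouse 2, CON mouse 3, T+E2 mouse 1 or T+E2 mouse 2 (up to an adjusted p of 0.0698). Without mouse 2 of both groups it was -1.01 (adjusted p = 0.157). Dsg2 therefore made up 68.7% ± 0.55 of the desmosomal cadherin FPKM in CON and 76.2% ± 0.40 in T+E2.

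The remaining desmosomal cadherins had no count or counts too low to test. Dsc3 and Dsg3, of basal and stratified layers, had 7, 5 and 5 counts in CON and 6, 15 and 12 in T+E2, and 0, 0 and 1 in CON and 0, 2 and 1 in T+E2, respectively. Dsg1c had 21, 3 and 14 counts in CON and 6, 2 and 3 in T+E2. Without CON mouse 2 it was tested and was a DEG. Dsg1a had 3 counts in 1 CON mouse. The Dsg1 copies are 94.5% to 98.3% identical over 1704 to 1795 bases, so reads may be split between them. Dsg1b and Dsg4 had no count.

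The partners that bind these proteins or control their genes were described by lists chosen by function, with earlier results of these data known. For comparison with every list, 10.4% of all genes tested were higher and 9.25% lower. Of 15 tested genes of catenins and desmosomal plaque, 1 was higher and 1 lower. The plakophilin Pkp2 rose (log2 fold change 0.59, adjusted p = 4.69e-03), and the neural catenin Ctnnd2 fell from 150, 157 and 157 counts in CON to 3, 22 and 26 in T+E2 (log2 fold change -3.18, adjusted p = 3.26e-03). The catenins bound to E-cadherin, Ctnnb1 (0.18), Ctnna1 (-0.04) and Ctnnd1 (-0.04), and plakoglobin Jup (-0.15) were not called. Of 23 other tight junction and polarity genes, 3 were higher and 0 lower (5 and 0 at an unadjusted p under 0.05, and 3 and 0 in DESeq2). These were Lsr, the organiser of tricellular contacts (1.02, adjusted p = 5.22e-04), the plaque protein Cgnl1 (0.68) and the adhesion receptor Cxadr (0.49).

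Of 16 tested transcription factors of epithelial junction genes, Klf5 was higher (1.08, adjusted p = 0.0138) and Grhl1 lower (-0.45, adjusted p = 0.0438). The repressors of E-cadherin Zeb1 (-0.11), Zeb2 (0.26), Snai1 (-0.55), Snai2 (0.09), Twist1 (-0.53) and Twist2 (-0.14) were not called. For Twist1 the groups did not overlap, with every T+E2 mouse below every CON mouse. Of 5 nectin and afadin genes, 0 were called by edgeR, by DESeq2 or at an unadjusted p under 0.05. Of the pannexins, which form channels in a single membrane, Panx1 was lower (-0.56, adjusted p = 0.0422), a call that DESeq2 did not make. The median log2 fold change was -0.04 for the catenin list, 0.02 for the tight junction list and -0.13 for the transcription factor list, beside 0.00 for all genes.

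**Figure D4:**
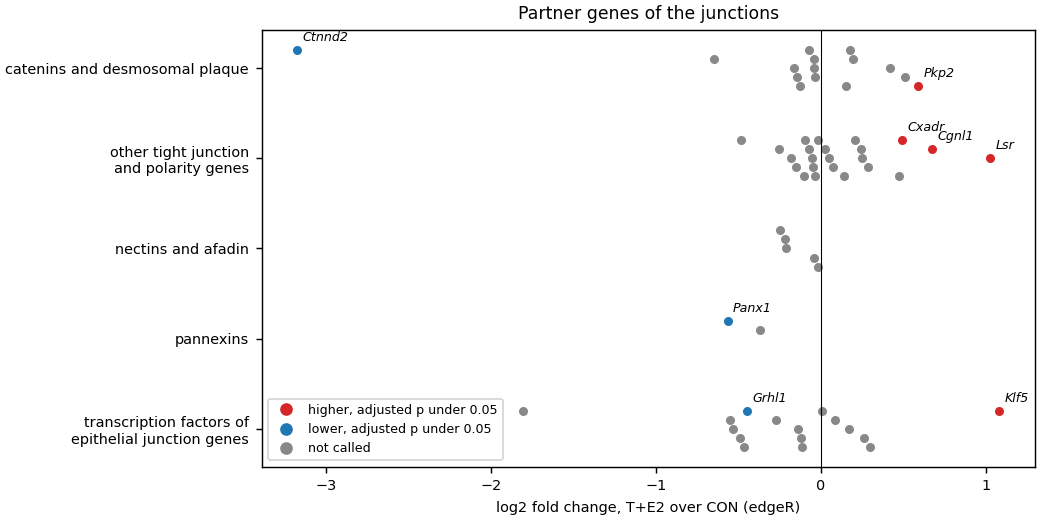
Log2 fold change in T+E2 over CON of each tested partner gene, in a row for each list, with points spread vertically for legibility only. Red points were higher and blue points lower at an adjusted p under 0.05 in edgeR, and these are named. Grey points were not called. Ctnnd2 stands apart at -3.18, and the grey point farthest to the left is Elf5 at -1.81, with 311 of its counts in CON mouse 2.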

How the data were processed

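Total RNA of 6 mouse prostates was sequenced with paired-end TruSeq libraries. Per the labels, TopHat, Bowtie2 and HTSeq were used, with no versions, annotation release or strand setting given in the sources used here. The authors deposited whole-number read counts per gene without normalization, and FPKM values that they computed from these counts, a gene length and the library total. Counts were tested with edgeR 4.0.16 in R 4.3.3 (TMM scaling, quasi-likelihood test, group as the only term, minimum count 10), although the study's methods name DESeq2, which was run as an alternative (1.42.0) beside limma 3.58.1 on log2(FPKM + 0.1) and log2(FPKM + 1). SEs came from the F statistic, and the fit was tested on simulated data. Depth was 14816146 to 16555549 counts, 3 counts being 0.182 to 0.207 CPM. Identifiers were matched to GENCODE M21 on GRCm38 (34267 of 34745, and all 81 members), and transcripts were compared by BLAST+ (2.17.0+, at least 90% identity over 500 bases). Promoter sequences are RefSeq's. Replicates are separate mice.

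The members, gene lists and marker lists were chosen with earlier results of these data known. Values in every mouse are given for DEGs, for the 2 members of highest mean FPKM in each family and for Cdh1, Cdh2, Cdh5, Gja1, Cldn5, Ocln and Tjp1, and other members are given by means, counts or single values. Some members and markers are not reported here by name, and counts over families and over all members include them. Tjp3, Gja5, Cldn3, Cdh8, Cldn19 and Gjd2 also overlap an exon of another gene on the opposite strand, by 23 to 165 bases. Further marker lists were checked. Of 6 luminal genes Epcam was higher and Krt18, Cd24a and Pbsn lower, of 6 tested leukocyte genes Itgam was higher, and 0 of 5 fibroblast, 7 skeletal muscle, 5 fat cell, 3 seminal vesicle and 3 mesothelial genes tested were called by edgeR (at an unadjusted p under 0.05, 2 fat cell and 1 seminal vesicle genes lower and 1 mesothelial gene higher; DESeq2 called 1 fat cell gene lower). The alternatives were other scalings, filters and tools, a replicate block, each mouse left out in turn and, chosen after the data were seen, mouse 2 of both groups left out. Matching replicate numbers did not pair the mice (correlations of deviations -0.05, 0.03 and 0.05).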

Additional observations from a re-analysis of the deposited data

How the results depend on the processing

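Of the 14 called members, all were called with RLE scaling and with DESeq2, and 13 with total-count scaling (Cdh1 lost). A minimum count of 50 gave 3 members higher and 1 DEG higher, in place of 5 and 3, because 2 of them, Cdh17 included, were then not tested. Limma on log2(FPKM + 1) gave 1 DEG higher, and 0 DEGs lower in place of 3, as did limma on log2(FPKM + 0.1) for DEGs lower. The pseudocount shrinks the change of low genes. With no filter, Cldn6 was also called (adjusted p = 0.0375) and Cdh1 was not. Both limma settings likewise called Cldn6 and lost Cdh1, and they also lost Cdh8. With a replicate block, 4 members were lower in place of 9 and 1 was a DEG lower. It lost 6 of the 14 calls and added Gja1, but the numbers do not pair the mice. Leaving out 1 mouse gave 3 to 7 members lower, 4 to 5 higher, 0 to 3 DEGs lower and 3 DEGs higher. Cldn4 changed sign within that set (-0.0694 to 0.0145, never called). Without mouse 2 of both groups, 1 member was lower (Gjc3, also the 1 DEG lower), and 2 mice a group remained. The causes of the other lost calls were not tested. Cldn10 was called in all 15 alternatives, and Cdh17 in the 14 that tested it. Counts under about 10 a library limit what 29 members can show.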
